A study of Mus musculus with 4 samples.

Results

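The genes described here are those of the platelet-derived growth factor (PDGF) system, namely the receptors Pdgfra and Pdgfrb and the ligands Pdgfa, Pdgfb, Pdgfc and Pdgfd. Their probes were found through the RefSeq accession that the array gives for each probe. All 6 genes had a probe, 8 probes in all, out of 20660 genes and 55681 probes on the array. The rule uses no measured value. RNA came from EB5 mouse embryonic stem cells in which Hoxb6 is reported by red fluorescent protein (RFP), after 6 days of differentiation on OP9, a bone marrow stromal feeder line. Cells were sorted with the reporter and an antibody to Flk-1, the VEGF receptor encoded by Kdr. The groups were the Flk-1-positive RFP-positive fraction and the Flk-1-positive RFP-negative fraction, with 2 one-colour arrays each. No treatment other than differentiation is named, and both fractions came from cells of the same reporter line.

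PDGFs are secreted dimers that act through a pair of receptor tyrosine kinases. The alpha receptor binds the A, B and C chains, and the beta receptor binds the B and D chains. In the mouse embryo Pdgfra is a gene of early mesoderm, above all of paraxial mesoderm, and of primitive endoderm. Pdgfb made by endothelium recruits Pdgfrb-bearing pericytes and smooth muscle cells to vessels. Embryonic stem cell cultures are often read by surface Flk-1 and PDGFR-alpha together, to part lateral from paraxial mesoderm.

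All values below are log2 signals relative to the 75th percentile of the array's own spots, and each difference is the RFP-positive mean less the RFP-negative mean. Between 55.2% and 59.3% of 59305 spots per array were well above background by the scanner's mark, and no spot was saturated. A gene without that mark on an array is called at background there, which gives no level. RFP-positive replicate 2 stood apart from the other arrays, with correlations across genes of 0.95 to 0.964 with the other 3, against 0.974 to 0.982 between those. RFP-positive replicate 1 correlated more closely with the RFP-negative arrays (0.982 and 0.974) than with RFP-positive replicate 2 (0.964). The arrays thus did not group by fraction. Genes are no independent replicates here. Kdr was bright in both fractions, at 4.41 and 4.36 on the RFP-positive arrays and 4.18 and 4.33 on the RFP-negative arrays. Hoxb6 was at background on all 4 arrays, so the reporter label could not be checked against it. Nothing in the labels says that the 2 arrays of a fraction came from separate cultures, so the p-values measure only the spread between these samples.

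Of the 6 PDGF genes, 5 were well above background on all 4 arrays and were tested. Pdgfra was the 1 gene whose RFP-positive arrays both lay above both RFP-negative arrays. Pdgfrb, Pdgfa, Pdgfb and Pdgfc overlapped between the fractions, and Pdgfd was at background on all 4 arrays. With limma's test and Benjamini-Hochberg adjustment over 13435 genes, 0 of the 5 passed an adjusted p of 0.05. Over all genes 0% passed, 0 genes in all, while 872 had an unadjusted p under 0.05. The arrays of the fractions lay apart in the higher direction for 18.8% of all genes tested and in the lower direction for 21.6%. The 1 of 5 PDGF genes that lay apart, 20%, is near that background. In 0 of the 5 were both RFP-positive arrays 2-fold or more from both RFP-negative arrays, a distance reached upward by 0.469% and downward by 0.893% of all genes.

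**Figure D1:**
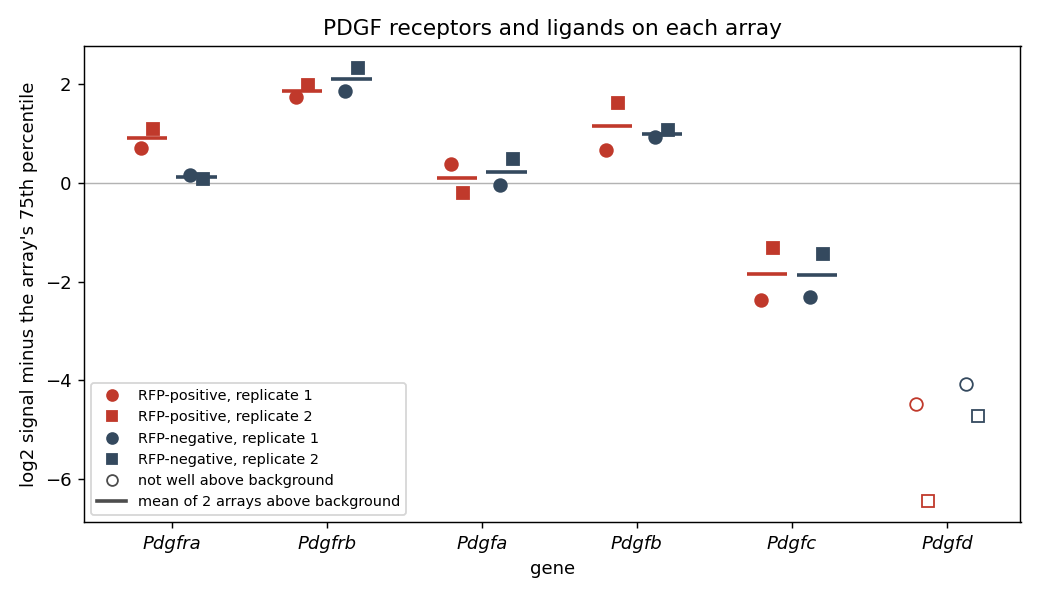
Log2 signal minus the array's 75th percentile (vertical axis) of the 6 PDGF genes on each of the 4 arrays, circles for replicate 1 and squares for replicate 2. Lines are means of 2 arrays, drawn where both were well above background, and open symbols were not well above background. Both RFP-positive Pdgfra points, 0.71 and 1.09, lie above both RFP-negative points, 0.16 and 0.07, while the other genes above background overlap. Heights are comparable within a gene and not between genes.

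Pdgfra encodes the alpha receptor. It stood at 0.71 and 1.09 on the RFP-positive arrays, against 0.16 and 0.07 on the RFP-negative arrays. Both RFP-positive arrays were high, replicate 2 the higher of them, and the RFP-negative arrays lay close together. The means were 0.90 ± 0.27 in RFP-positive and 0.11 ± 0.06 in RFP-negative cells (SD, n = 2 each). The difference of 0.79 (SE 0.25) corresponds to a 1.73-fold higher signal, with a 95% interval from 1.09-fold to 2.74-fold. Its unadjusted limma p was 0.0284, and the adjusted p over all genes was 0.745. An unadjusted p under 0.05 in the higher direction was reached by 2.77% of all genes (in the lower direction by 3.72%), and 4.38% of genes had a more positive difference than Pdgfra. Leaving out RFP-positive replicate 2 gave 0.60, and leaving out the other RFP-positive array gave 0.98. As the RNA came from bulk fractions, more cells with Pdgfra transcript and more transcript per cell cannot be told apart.

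The array carried the Pdgfra probe in 10 spots, so that its technical spread could be read within each array. All 10 spots were well above background on every array. On RFP-positive replicate 1 they ran between 0.53 and 0.85, with an SD of 0.10, and on replicate 2 between 0.89 and 1.23, with an SD of 0.11. On RFP-negative replicate 1 they ran between −0.06 and 0.24, with an SD of 0.09, and on replicate 2 between −0.04 and 0.21, with an SD of 0.08. The lowest RFP-positive spot therefore lay above the highest RFP-negative spot. The gap of 0.38 between the 2 RFP-positive array means was wider than the SD of the spots on either array, while the RFP-negative means were 0.09 apart. Spots of 1 array share their RNA and labelling, and they are no replicates of a fraction. In unscaled intensity the mean signals (geometric, over spots) were 338.7 and 532.8 on the RFP-positive arrays and 204.5 and 218.3 on the RFP-negative arrays.

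**Figure D2:**
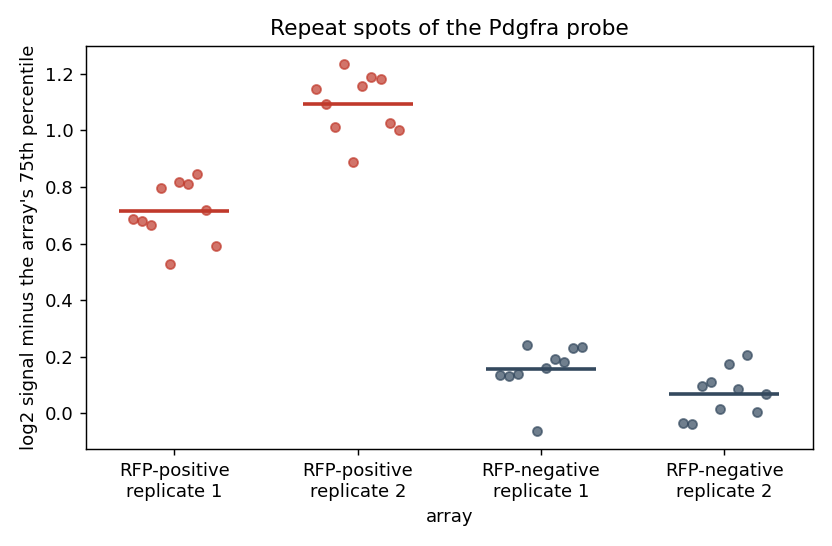
Log2 signal minus the array's 75th percentile (vertical axis) of the 10 spots of the Pdgfra probe on each of the 4 arrays (horizontal axis), with the array mean as a line. The RFP-positive spots, from 0.53 to 1.23, do not overlap the RFP-negative spots, from −0.06 to 0.24, and the 2 RFP-positive arrays differ from each other.

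The RefSeq window around the annotated Pdgfra start, 250 bases before to 50 after, is shown because Pdgfra is the member whose arrays lay apart and the reporter that defines the fractions belongs to a Hox gene. It is the plus strand of chr5:75152001-75152300 in build GRCm38.p6, printed 5′ to 3′ in lower case.
Pdgfra promoter window: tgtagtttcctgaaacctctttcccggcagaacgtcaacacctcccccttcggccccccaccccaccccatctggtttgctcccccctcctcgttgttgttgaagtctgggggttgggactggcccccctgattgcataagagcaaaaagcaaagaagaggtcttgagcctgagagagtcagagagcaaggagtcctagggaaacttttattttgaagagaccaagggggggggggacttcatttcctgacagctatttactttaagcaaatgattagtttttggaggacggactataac
Both strands were searched for TGATTNAT, a form of the joint HOX-PBX site with N for any base, with 0 matches, while 3.22% of 32851 such windows in the RefSeq table held it. The letters AGATAA, bound by GATA factors, had 0 matches, against 11.2% of windows with at least 1. The TATA box, TATAAA, was in 13.6% of windows, and the GC box, GGGCGG, in 35.7%, with 0 matches of either in this window. The absence says only that these letters are not in this window. Its G and C content was 51%, against a median of 52.7% over all windows. The table held windows for 4 of the 6 genes.

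Pdgfrb encodes the beta receptor, which marks pericytes, smooth muscle and stromal fibroblasts. It read 1.74 and 1.99 on the RFP-positive arrays, against 1.86 and 2.34 on the RFP-negative arrays. The fractions overlapped, since RFP-positive replicate 2 lay above RFP-negative replicate 1. The means were 1.87 ± 0.17 in RFP-positive and 2.10 ± 0.34 in RFP-negative cells (SD, n = 2 each). The difference of −0.23 (SE 0.28) had a 95% interval from −0.96 to 0.50, or 0.513-fold to 1.42-fold, and a limma adjusted p of 0.824. The interval spans changes in both directions. Without RFP-negative replicate 2 the difference was 0.0100.

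Whether the receptors changed unequally was asked within each array, where the array's scaling cancels. The log2 signal of Pdgfra minus that of Pdgfrb was −1.03 and −0.90 on the RFP-positive arrays, against −1.70 and −2.27 on the RFP-negative arrays. Both RFP-positive values were the less negative ones, and the change in Pdgfra minus the change in Pdgfrb was 1.02. An exact two-sided permutation test of 2 arrays against 2 gave p = 0.333, the smallest value that this design allows. With 1 array left out at a time the quantity lay between 0.74 and 1.30. These values compare changes and say nothing of which receptor is the more abundant, because the probes differ.

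Pdgfa encodes the A chain, which signals through the alpha receptor alone. It was measured by a pair of probes of the same transcript. The probe used for the gene read 0.38 and −0.20 on the RFP-positive arrays, against −0.05 and 0.49 on the RFP-negative arrays, so that the order of the fractions turned between the replicate numbers. Its difference was −0.13 (SE 0.34, limma adjusted p 0.916), with a 95% interval from −1.02 to 0.76. The second probe read −0.20 and −0.39 in RFP-positive and −0.27 and 0.30 in RFP-negative cells, a difference of −0.31. Both probes overlapped between the fractions. The sign of the first probe turned to 0.16 without RFP-positive replicate 2 and to 0.14 without RFP-negative replicate 2.

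Pdgfb encodes the B chain, the ligand of both receptors, which endothelial cells and megakaryocytes make. The probe used for it read 0.66 and 1.63 on the RFP-positive arrays, against 0.93 and 1.07 on the RFP-negative arrays. RFP-positive replicate 1 was the lowest and replicate 2 the highest of the 4 arrays. The difference was 0.15 (SE 0.39, limma adjusted p 0.916), with a 95% interval from −0.86 to 1.15. The second Pdgfb probe read −0.71 and −0.24 in RFP-positive and −0.27 and 0.10 in RFP-negative cells. Its difference was −0.38 (SE 0.31), with a 95% interval from −1.20 to 0.43, so the probes of this gene differed in sign and both intervals spanned 0. Taking the mean of the probes gave −0.12, and leaving out RFP-positive replicate 2 gave −0.34 for the first probe.

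Pdgfc encodes the C chain, which is secreted in a latent form and freed by cleavage, by tissue plasminogen activator among other proteases. It read −2.38 and −1.32 on the RFP-positive arrays, against −2.31 and −1.44 on the RFP-negative arrays. In both fractions replicate 2 was the higher array, by 1.06 in RFP-positive and by 0.87 in RFP-negative cells, and the fractions were nearly level at each replicate number. The difference was 0.02 (SE 0.50, limma adjusted p 0.987), with a 95% interval from −1.27 to 1.32. Without RFP-positive replicate 2 it was −0.51 and without RFP-negative replicate 1 it was −0.41, while leaving out either other array gave 0.56 and 0.46.

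Pdgfd encodes the D chain, a latent ligand of the beta receptor. Its 1 probe read −4.48 and −6.44 on the RFP-positive arrays, against −4.07 and −4.73 on the RFP-negative arrays. None of the 4 was well above background, so no level and no difference was measured.

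**Figure D3:**
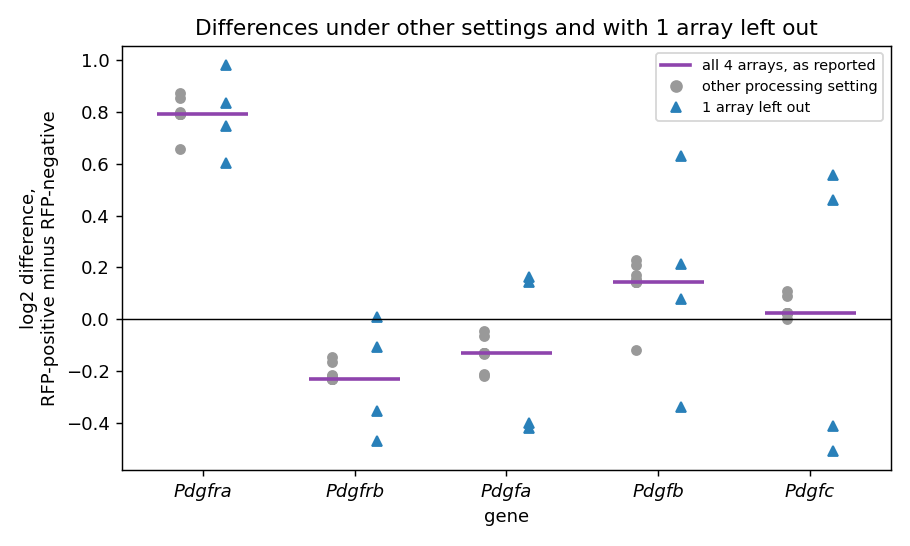
Log2 difference, RFP-positive minus RFP-negative (vertical axis), of the 5 PDGF genes tested, with all 4 arrays (line), under 10 other processing settings (circles) and with 1 array left out (triangles). Pdgfra stays positive, between 0.60 and 0.98, while each of the other genes has at least 1 value on the other side of 0. As the Pdgfra arrays lie apart, leaving out 1 array could not turn its sign. The filter, probe-mean, eBayes and replicate-block settings leave the Pdgfra difference unchanged.

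The PDGF receptors belong with Kit, Csf1r and Flt3 to the class III receptor tyrosine kinases, close kin of the VEGF receptors, and these relatives and their ligands were read beside them. Of 15 listed genes 14 were tested, 0 passed the adjusted threshold, and 5 lay apart in the higher and 2 in the lower direction. These are 35.7% and 14.3% of the genes tested, against 18.8% and 21.6% over all genes. The median difference of the list was 0.07, against −0.05 over all genes tested. With 1 array left out it lay between 0.01, without RFP-negative replicate 1, and 0.16, without RFP-negative replicate 2. The genes of smallest p were Vegfd, Pgf, Vegfa and Flt1, all of the VEGF branch. Pgf, placental growth factor, differed by 0.92 (SE 0.24), Vegfa by 0.82 (SE 0.24) and Flt1, a receptor for both, by 0.84 (SE 0.28), with limma adjusted p of 0.704, 0.727 and 0.745. With the mean of its probes Vegfa was at 0.14. Vegfd had measured means of −4.87 in RFP-positive and −3.31 in RFP-negative cells. Its RFP-positive signals were both at background, so Vegfd was tested only through its RFP-negative arrays. Its rank by p and its place among the 2 lower genes are therefore no support for a difference. In these signals RFP-negative exceeded RFP-positive by a bound of at least 1.92-fold. With another background correction (normexp) the Vegfd difference was −0.26, against −1.55 as processed here. The bound therefore depends on how background is treated and holds only as processed here. Kit, the stem cell factor receptor, differed by 0.10 (SE 0.25), and Csf1r, the macrophage growth factor receptor, by −0.0011 (SE 0.23).

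**Figure D4:**
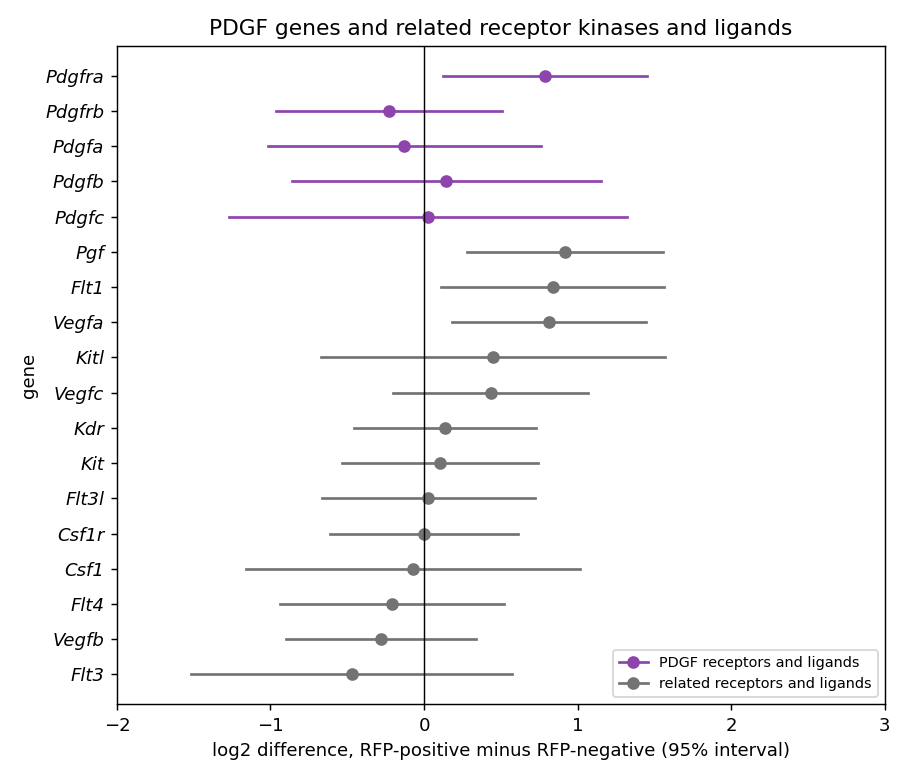
Log2 difference, RFP-positive minus RFP-negative (horizontal axis), with the 95% interval of the limma fit, for the 5 PDGF genes tested and the related receptors and ligands (vertical axis). Vegfd, with no RFP-positive array above background, is not drawn. The Pdgfra interval, 0.13 to 1.45, lies above 0 before adjustment, as do those of Pgf, Flt1 and Vegfa, while those of the other PDGF genes span 0.

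Pdgfra, Kit and Kdr neighbour each other on mouse chromosome 5 in the RefSeq annotation, with Gsx2 and Chic2 on the other side of Pdgfra. These neighbours were looked up after the values of Pdgfra were known. Differences were −0.06 (SE 0.24) for Chic2, −0.45 (SE 0.27) for Gsx2, 0.10 (SE 0.25) for Kit and 0.13 (SE 0.23) for Kdr. Gsx2, a homeobox gene of the forebrain, lay apart in the lower direction, at −3.32 and −3.11 in RFP-positive and −2.98 and −2.54 in RFP-negative cells. Chic2 and Kit overlapped, and Kdr was higher without overlap. A second Kdr probe read 3.83 and 4.44 in RFP-positive and 3.59 and 3.69 in RFP-negative cells, a difference of 0.50 (SE 0.32), and the mean of the probes gave 0.32. Next to Pdgfrb lies Csf1r, which was level between the fractions, at 4.26 ± 0.14 in RFP-positive and 4.26 ± 0.09 in RFP-negative cells (SD, n = 2 each).

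Genes that process PDGFs, hold them in the matrix or assist the receptors formed a list of 15, of which 12 were tested and 0 passed. In it, 4 genes (33.3%) lay apart in the higher and 3 (25%) in the lower direction, and the median was 0.04, or 0.16 and 0.10 without RFP-negative replicates 1 and 2. The 4 of smallest p were Pcsk5, Plat, Hspg2 and S1pr1. Pcsk5, a proprotein convertase, read −1.32 and −1.19 in RFP-positive and −2.11 and −1.90 in RFP-negative cells, a difference of 0.75 (SE 0.23, limma adjusted p 0.745). Plat, the tissue plasminogen activator that frees the C chain, read −1.37 and −1.30 in RFP-positive and −0.95 and −0.37 in RFP-negative cells, a difference of −0.68 (SE 0.29, limma adjusted p 0.745). Hspg2, which encodes the matrix proteoglycan perlecan, differed by 0.92 (SE 0.46), and S1pr1, a lipid receptor reported to act together with PDGF receptors, by 0.44 (SE 0.22), with limma adjusted p of 0.750 for both. With the mean of a gene's probes Pcsk5 was at 0.14 and Hspg2 at 0.52, and without RFP-positive replicate 2 Hspg2 was at 0.45. Plat was at −0.39 without RFP-negative replicate 2. Cspg4, the NG2 proteoglycan of pericytes, was at background on all 4 arrays.

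Proteins that bind the activated receptors or carry the signal formed a list of 35 genes, all tested. None passed (0 genes), with 8 (22.9%) apart in the higher and 7 (20%) in the lower direction and a median of 0.10. The 4 of smallest p were Grb10, Sos2, Pik3r2 and Sos1. Grb10, an imprinted adaptor that binds several receptor kinases, read −0.61 and −0.03 in RFP-positive and −1.82 and −1.48 in RFP-negative cells, a difference of 1.33 (SE 0.31, limma adjusted p 0.659). Sos2 and Sos1, exchange factors that activate Ras, differed by 0.89 (SE 0.33) and 0.77 (SE 0.37), with limma adjusted p of 0.745 for both. Pik3r2, a regulatory subunit of PI3-kinase, differed by −0.51 (SE 0.23) at the same adjusted p. Leaving out RFP-positive replicate 2 put Sos2 at 0.52, Sos1 at 0.33 and the median of the list at 0.02, while leaving out the other RFP-positive array put that median at 0.23.

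Negative regulators of the receptors, which degrade, dephosphorylate or damp them, formed a list of 17 genes, all tested. In this list 0 passed, 6 (35.3%) lay apart in the higher and 3 (17.6%) in the lower direction, and the median was 0.11, or 0.06 without RFP-positive replicate 1. Its genes of smallest p were Socs3, Spry4, Spry2 and Socs1. Socs3, a suppressor of cytokine signalling, read 0.46 and 1.34 in RFP-positive and −0.34 and −0.15 in RFP-negative cells, a difference of 1.14 (SE 0.37). The Sprouty genes, feedback inhibitors of the Ras pathway, had opposite signs, Spry4 at 0.74 (SE 0.24) and Spry2 at −0.99 (SE 0.39). Socs1 differed by 1.26 (SE 0.54), where 1 RFP-negative array was at background. The limma adjusted p was 0.745 for all 4 of these genes. Socs3 was at 0.70 without RFP-positive replicate 2, and Spry2 was at −0.60 and Socs1 at 0.56 without RFP-negative replicate 1. With normexp background correction Spry4 was at 0.25 and Socs1 at 0.40.

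Early genes that growth factors induce, PDGF among them, formed a list of 21, all tested. None passed (0 genes), 3 (14.3%) lay apart in the higher and 2 (9.52%) in the lower direction, and the median was −0.06. Junb differed by −1.06 (SE 0.40), Ier2 by −0.89 (SE 0.36), Fos by 0.70 (SE 0.29) and Has2, a hyaluronan synthase, by 0.54 (SE 0.31). The limma adjusted p was 0.745 for Junb, Ier2 and Fos and 0.751 for Has2. Junb was at −0.62 and Ier2 at −0.45 without RFP-positive replicate 2, and Has2 at 0.23 without RFP-negative replicate 2. The median turned to 0.06 with RFP-positive replicate 1 left out and to 0.08 with RFP-negative replicate 1 left out. Its lowest value was −0.19, with RFP-negative replicate 2 left out.

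**Figure D5:**
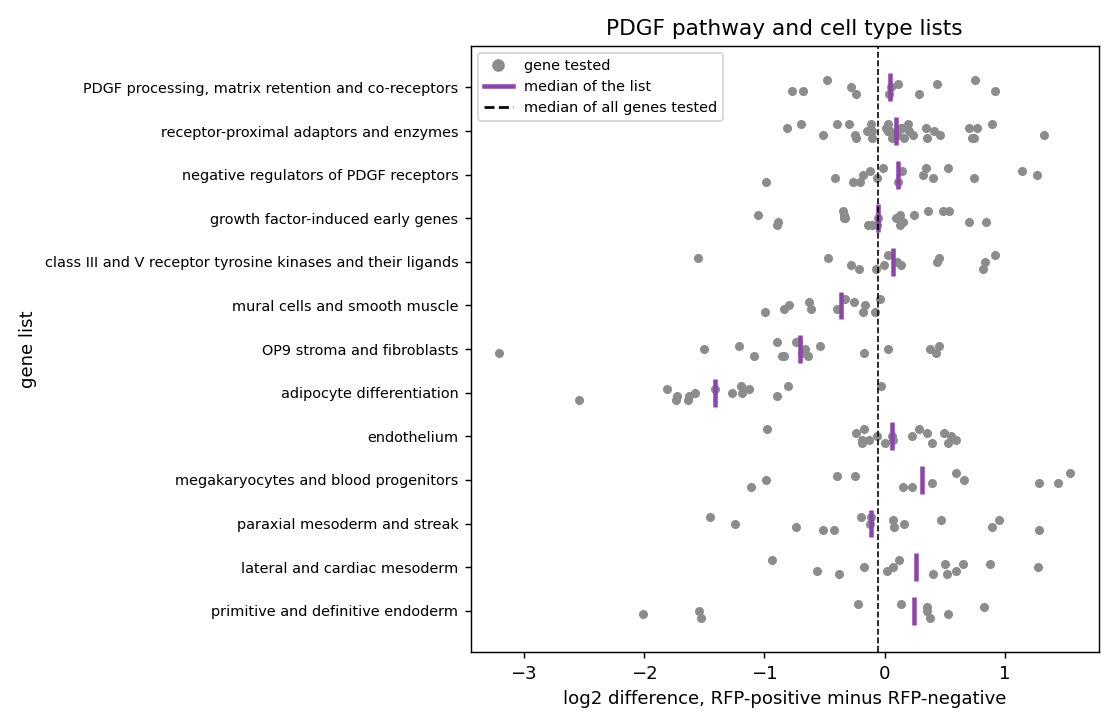
Log2 difference, RFP-positive minus RFP-negative (horizontal axis), of every tested gene (points) in 13 lists (vertical axis), with the median of each list and, dashed, the median of all genes tested, −0.05. The PDGF pathway lists have medians between −0.06 and 0.11, while the adipocyte, stromal and mural lists have medians of −1.41, −0.70 and −0.36.

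Markers of cell types and tissues were set beside these values. Links to PDGFs are named below where a list has one, and none is given for the adipocyte list. In each of these lists 0 genes passed an adjusted p of 0.05 with limma. At an unadjusted p under 0.05, which 2.77% of all genes reached in the higher and 3.72% in the lower direction, 13 adipocyte and 5 stromal genes were lower and 0 of either higher, 3 blood genes were higher and 0 lower, and 0 mural or endothelial genes were called. Paraxial genes had 2 calls each way, lateral genes 1 higher and 0 lower, and endoderm 1 higher and 3 lower. Counts of genes that lay apart are to be read against 18.8% higher and 21.6% lower over all genes. The list for OP9 stroma and fibroblasts, cells that as a rule bear both receptors, had 18 of 20 genes tested and a median of −0.70, or −0.34 without RFP-negative replicate 2. In it 11 genes (61.1%) lay apart in the lower and 2 (11.1%) in the higher direction, and Vcam1 (−1.50), Col1a1 (−0.85), Thy1 (−0.89) and Timp1 (−1.09) had the smallest p. Vcam1 was at −0.97 without RFP-positive replicate 2, and with normexp background correction Vcam1 was at −0.69 and Timp1 at −0.52. The summed signal of its 20 genes, in units of the 75th percentile, was 71.3 and 62.5 on the RFP-positive arrays, against 83.8 and 133.7 on the RFP-negative arrays. Such sums weigh the brightest genes most. Dcn and Postn were at background on all 4 arrays. The Pdgfra difference was 0.79. The Pdgfrb difference of −0.23 had no settled sign, as its interval spanned 0 and it was 0.0100 without RFP-negative replicate 2. Its sign therefore cannot be set against that of the list's median. Both fractions had been sorted as Flk-1-positive, and how many stromal cells passed that gate was not measured here. The part of stromal cells in either value was not tested.

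The adipocyte list, which was noticed in earlier work on these arrays, had a median of −1.41 over 15 genes, 13 of them (86.7%) apart in the lower direction and 0 in the higher. Cidec was at −2.54, Cfd at −1.81, Pparg at −1.41 and Fabp4 at −1.58. Its summed signal was 26.2 and 18.7 on the RFP-positive arrays, against 58.3 and 70.0 on the RFP-negative arrays. The mural list, whose cells are the classical bearers of Pdgfrb, had 12 of 17 genes tested and a median of −0.36, with 6 (50%) apart in the lower and 0 in the higher direction. The contractile genes Cnn1 (−0.62), Myl9 (−0.79), Actg2 (−0.84) and Acta2 (−0.99) had the smallest p. The list's summed signal was 350.4 and 343.8 on the RFP-positive arrays, against 400.8 and 406.1 on the RFP-negative arrays. Most of that sum was 1 gene, Mcam, at 8.28 and 8.25 in RFP-positive and 8.46 and 8.42 in RFP-negative cells. With RFP-negative replicate 2 left out, Acta2 was at −0.45, Actg2 at −0.47 and Myl9 at −0.49. Pericyte markers differed in whether they were measured. Abcc9, Kcnj8 and Cspg4 were at background on all 4 arrays. Rgs5, Mcam, Notch3 and Anpep were well above background on all 4, with differences of −0.04, −0.18, −0.25 and −0.17, and were named after their values were seen. Rgs5 read 1.84 and 1.68 in RFP-positive and 1.62 and 1.98 in RFP-negative cells, and overlapped, as did Notch3 and Anpep. How far mural cells bear on the Pdgfrb value was not tested.

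Among sources of the B chain, the endothelial list had a median of 0.07 over 18 genes, with 7 (38.9%) apart in the higher and 0 in the lower direction. Vwf was at 0.56, Cldn5 at 0.60, Icam2 at 0.49 and Eng at −0.98. Without RFP-positive replicate 2, Cldn5 was at 0.25 and Eng at −0.39, and without RFP-negative replicate 2 Icam2 was at 0.14. Its summed signal was 115.0 and 124.7 in RFP-positive and 110.8 and 102.0 in RFP-negative cells. Leaving out 1 array at a time gave endothelial medians of 0.09 to 0.17. The list for megakaryocytes and blood progenitors had 12 of 15 genes tested and a median of 0.31, or 0.19 without RFP-positive replicate 1, with Runx1 at 1.54, Gata1 at 1.44, Myb at 1.29 and Spi1 at −1.11, the Myb value with 1 RFP-negative array at background. These are transcription factors of blood progenitors. Among the genes of megakaryocytes and platelets, named after their values were seen, Gp9 was at background on all 4 arrays and Pf4 and Ppbp on 3 of 4. Gp1ba (0.66) and Itga2b (0.59) lay apart in the higher direction and Gp1bb (−0.25) in the lower. Without RFP-positive replicate 2 Gata1 was at 0.85 and Myb at 0.83, without RFP-negative replicate 1 Spi1 was at −0.54, and with the mean of its probes Runx1 was at 0.76. With normexp background correction Runx1 was at 0.59, Gata1 at 0.87, Myb at 0.41 and Spi1 at −0.32. In the blood list 6 genes (50%) lay apart in the higher and 3 (25%) in the lower direction. Its summed signal was 27.6 and 25.8 in RFP-positive and 23.1 and 21.0 in RFP-negative cells.

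Markers of the tissues in which Pdgfra is known in the early embryo differed in sign. Paraxial mesoderm and streak genes had a median of −0.11 over 15 genes, with 4 (26.7%) apart in each direction. Tbx6, a factor of presomitic mesoderm, was at −1.24 and Lfng, a modulator of Notch in somites, at −1.45. Tcf15 and Meox1, factors of the formed somite, were at 0.96 and 1.28. These 4 had the smallest p, and the rest of the list had both signs. Of that rest, Eomes (0.89) and Foxc2 (0.47) lay apart in the higher direction and Mesp1 (−0.74) and Pax3 (−0.42) in the lower. The others overlapped, Uncx at −0.11 among them. With another background correction (normexp) Tbx6 was at −0.46, Tcf15 at 0.49 and Meox1 at 0.71. Without RFP-positive replicate 1 Lfng was at −0.94. The summed signal of the list was 37.7 and 47.4 in RFP-positive and 35.1 and 31.5 in RFP-negative cells. Most of that sum was 1 gene, Foxc2, at 4.50 and 5.05 in RFP-positive and 4.36 and 4.25 in RFP-negative cells. The median of the list lay between −0.21, with RFP-negative replicate 2 left out, and −0.05, with RFP-negative replicate 1 left out. Lateral and cardiac mesoderm had a median of 0.26 over 14 genes, or 0.09 without RFP-negative replicate 2, with 6 (42.9%) apart in the higher and 0 in the lower direction. There Tbx5 was at 1.28, Tnnt2 at 0.65, Myl4 at 0.88 and Bmp4 at 0.52, the Tbx5 value with 1 RFP-negative array at background. The summed signal was 173.7 and 187.6 in RFP-positive and 169.1 and 99.1 in RFP-negative cells. Most of that sum was 1 gene, Gata5, at 7.13 and 7.14 in RFP-positive and 7.08 and 6.18 in RFP-negative cells. With the mean of its probes Bmp4 was at 0.05, and without RFP-positive replicate 2 Myl4 was at 0.40 and Tbx5 at 0.80. Tbx5 was at 0.35 with normexp background correction. Endoderm had 10 of 14 genes tested, with 2 (20%) apart in the higher and 3 (30%) in the lower direction. Its median of 0.24 turned to −0.28 without RFP-negative replicate 1 and was 0.03 and 0.02 without RFP-positive replicates 1 and 2 and 0.46 without RFP-negative replicate 2. Its genes of smallest p were Rbp4 at −2.01, Epcam at −1.55, Cldn6 at −1.52 and Sox7 at 0.83, and its summed signal was 39.3 and 56.1 in RFP-positive and 35.1 and 50.5 in RFP-negative cells. Cldn6 was at −0.77 without RFP-negative replicate 2 and Sox7 at 0.50 without RFP-positive replicate 2. The part of these tissues in the Pdgfra value was not tested.

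The genes most like each PDGF gene over the 4 arrays were found by the root mean square distance of log2 values, each gene centred on its own mean, among 11977 other genes above background on all arrays. Nearest to Pdgfra were Dennd5a, Hunk and Fam199x, at distances of 0.032, 0.036 and 0.037, and 55 genes lay within 0.1. Nearest to Pdgfrb were Rundc1, Clcn6 and Zfp74, with 163 genes within 0.1. Nearest to Pdgfa were Rmnd1, Nck1 and Prss27, with 75 genes within 0.1, and nearest to Pdgfb were Igsf10, Tbc1d5 and Phc1, with 63. For Pdgfc they were Dipk1a, Steap2 and Prrc1, with 15. No PDGF gene was among the nearest 3 of another. With 4 points a near pattern is common, and it is given as a description.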

How the data were processed

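Total RNA of 4 sorted samples, 2 per fraction, was hybridised to one-colour (Cy3) Agilent arrays, all on 1 slide and in 1 scan. Per the file headers, Agilent Feature Extraction 10.10.1.1 gave the deposited intensity of each spot (its processed signal). The authors' value table holds the same deposited intensity on a linear scale, each array's processed signals times 1 constant (5.82, 5.39, 6.45 and 6.02 for RFP-positive replicates 1 and 2 and RFP-negative replicates 1 and 2, with column medians of 133.9, 142.3, 136.2 and 143.9). The basis of these constants is not given in the sources.

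Of 62976 spots 3671 control spots were left out, as were 115 to 153 outlier spots per array. Signals were divided by the 75th percentile of their array and put on the log2 scale, and spots of a probe were averaged. RefSeq's GRCm38 table gave 1 symbol to 27235 of 55681 probes, several to 0 and none to 28446. A gene's probe of highest mean was used, and a gene was tested if well above background on both arrays of a fraction, which left 13435 genes. The test was limma's (version 3.58.1, R 4.3.3, two-sided, 2 residual and 2.77 prior degrees of freedom). A bound of at least N-fold sets the bright fraction's mean against the dim one, where each array gives its signal or, if higher, the lowest signal marked above background there. Tables and figures used Python 3.11.15, pandas 2.3.3 and matplotlib 3.10.9. The fit was tested on simulated data.

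The genes and lists were chosen with earlier results of these data known. Named genes are the 6 PDGF genes, Kdr and Hoxb6, the 4 of smallest p per list, the 3 nearest in pattern, and neighbours on the chromosome, added after values were seen. The alternatives were other scalings, background correction, filters, probe rules, eBayes settings, the replicate block and each array left out. The number of arrays limits the precision.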

Additional observations from a re-analysis of the deposited data

How the results depend on the processing

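Over 10 other processing settings the Pdgfra difference lay between 0.66 and 0.87, with limma adjusted p of 0.639 to 0.884, and with 1 array left out between 0.60 and 0.98 (adjusted p 0.176 to 0.9999). The Pdgfrb difference was −0.23 to −0.15 over the settings, and −0.47 to 0.0100 with 1 array left out. For Pdgfa the ranges were −0.22 to −0.04 and −0.42 to 0.16, for Pdgfc 0.0018 to 0.11 and −0.51 to 0.56, and for Pdgfb −0.34 to 0.63 with 1 array left out. The Pdgfb sign turned, to −0.12, with the mean of its probes, and its highest value over the settings was 0.23. The change in Pdgfra minus that in Pdgfrb was 0.87 with normexp background correction and lay between 0.74 and 1.30 with 1 array left out. The number of genes past an adjusted p of 0.05 was 0 under all 14 alternatives. The number whose fractions lay 2-fold or more apart on every pair of arrays was 183 (0.469% of genes higher and 0.893% lower), 12 with normexp background correction, 335 with no filter, 57 with genes above background on all 4 arrays only, and 383 to 1471 with 1 array left out, where fewer arrays had to lie apart. The causes were not tested. With the replicate block the Pdgfra adjusted p was 0.639, 0 genes passed and 1039 had an unadjusted p under 0.05, against 872 without it. Same-numbered arrays deviated together only weakly (r = 0.092 across genes), and the labels give the numbers no meaning beyond counting. For 53 other named genes the sign was the same in all 738 combinations of gene and setting. As 0 genes passed under any setting, the threshold says nothing here. Nor is the sign independent support, because all of them but Kdr were picked by smallest p in these data. Filters, eBayes settings and the replicate block also leave the difference of a gene unchanged. Leaving out 1 array cannot turn the sign of a gene whose arrays lie apart. The size of the difference moved by over 1.5 times for 21 of the 53 genes with normexp background correction, 20 of them to a smaller size. Among these were Myb at 0.41, Tbx6 at −0.46, Spry4 at 0.25 and Vegfd at −0.26. The size moved as far for 6 genes with the mean of a gene's probes, and for 26 with at least 1 array left out. Of the 15 genes nearest in pattern, 9 were kept with quantile normalization, a setting added after the values were seen, as were the list medians with 1 array left out. Signal near background limits Pdgfd.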
